A study of Mus musculus with 20 samples.

Results

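Condensin is a ring-shaped protein complex that folds chromatin into compact chromosomes for cell division. The genes described here are its subunits: every gene in the study's expression tables with the symbol Smc2 or Smc4, or with a symbol that starts with Ncap. The rule found 8 genes among the 8114 gene IDs of the tables, and each of the 8 had a row in both tables, that of ribosome-bound mRNA and that of total RNA. The samples were oocytes from C57BL/6 mice, taken from females that were 3 weeks old. These females were Zp3-Cre+ RiboTag animals: Cre under the oocyte promoter Zp3 switches on an epitope tag on a ribosomal protein, so that ribosomes of the oocyte can be pulled down with the mRNA they carry. All groups shared this genotype, an injection of 5 IU PMSG given 44 h before collection, mechanical removal of cumulus cells, and a hold in prophase I arrest with 1 µM cilostamide, which keeps the oocyte from resuming meiosis. Oocytes were then moved to medium without cilostamide, and 200 per sample were collected before release (0 h, prophase I), in prometaphase I (2 h early, 4 h in the middle, 6 h late) or in metaphase I (8 h). Ribosome-bound mRNA and total RNA were sequenced at each of the 5 times with 2 libraries per group, 20 libraries in all. The labels do not say whether the 2 libraries of a group came from separate animals, so the p-values measure only the spread between these samples, which may be technical. For the total RNA samples, the titles and the study design (input, total RNA) disagree with the description field, which has them as ribosome-bound; the titles and design were followed.

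Smc2 and Smc4 encode the pair of coiled-coil ATPases that form the core of every condensin. To this core is added either the condensin I set (Ncapd2, Ncapg and Ncaph) or the condensin II set (Ncapd3, Ncapg2 and Ncaph2). In each set the H subunit is the kleisin that closes the ring, and the D and G subunits are HEAT-repeat proteins. In dividing mammalian cells condensin II is nuclear and acts from prophase on, while condensin I reaches chromosomes after the nuclear envelope breaks down. Condensin is needed to build and segregate chromosomes in the mouse oocyte, where transcription has stopped before meiosis resumes and proteins are made from stored mRNA.

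Short stretches of the 3' UTRs are shown for the 5 subunits whose ribosome-bound mRNA differed between 8 h and 0 h, because elements in the 3' UTR are known to govern the translation of stored oocyte mRNAs. The sequences are of the principal transcripts in GENCODE vM21 on build GRCm38 (mm10), 5' to 3' on the transcript strand. Capitals mark TTTTAT, the cytoplasmic polyadenylation element, or, where a 3' UTR has none, AATAAA, the polyadenylation hexamer. For Smc4, whose 3' UTR of 97 bases held none of the motifs searched, the last 30 bases are given with no capitals.
Smc4 (chr3:69034594-69034623, plus strand): gttgtataaaatacatttttctaaattgaa
Ncapg2 (chr12:116461069-116461098, plus strand): ttcatcaaaataTTTTATtgccctctgttg
Smc2 (chr4:52488187-52488216, plus strand): tttgtttttgtaTTTTATatatagtttcac
Ncapd2 (chr6:125168007-125168036, minus strand): taatgaataaatgtTTTTATagacttttaa
Ncaph2 (chr15:89372794-89372823, plus strand): gtgtctatttacAATAAAttgttctttata
The TTTTAT shown begins 531 bases from the annotated 3' end in Ncapg2, 62 bases from it in Smc2 and 16 bases from it in Ncapd2. The 3' UTRs were 996 bases long in Ncapg2, 1605 in Smc2, 227 in Ncapd2 and 1375 in Ncaph2. TTTTAT or TTTTAAT, searched on the transcript strand only, occurred in the 3' UTRs of Ncapg2, Smc2, Ncapd2, Ncapd3 and Ncapg and not in those of Smc4, Ncaph and Ncaph2. Over all 7706 genes of the tables with an annotated 3' UTR, 65.2% held one. Among the 273 genes whose 3' UTR was no longer than that of Smc4 (3.54% of the total), 9.16% did. AATAAA or ATTAAA was in 91.8% of the 3' UTRs, and in neither Smc4 nor Ncapg2. These are matches of letters in annotated transcripts; no binding or tail length was measured here.

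The values are scaled CPM: a gene's part of the reads of a library, brought to a common total and multiplied by a factor of the authors for that library. They are shares of a library, so they give neither the molecules per oocyte nor the number of intact oocytes in a sample. A lower share can come from fewer molecules of a gene or from more of other genes, and these cannot be told apart. The 2 kinds of RNA were scaled in separate tables, and levels are compared only within a kind. From the spacing of the values, depth was inferred at 27571236 to 51714900 reads in listed genes per library, so that a value of 10 stood for 282 to 533 reads. Inferred reads were 17757 to 111946 per library for Smc4, and 89 to 535 for Ncaph2, the subunit with the fewest. Changes are on the log2(value + 1) scale with limma's standard error after ±, the comparison uses a linear model over all 10 libraries of a kind, and a gene passed at a Benjamini-Hochberg adjusted p under 0.05 over the whole table. On the second principal component of the ribosome-bound libraries, replicate 1 of 4 h was at -35.2 and the library nearest to it on that side at -4.88. On that of the total RNA libraries, the 2 libraries of 8 h were the furthest apart, at 20.2 and -25.0. All 13 oocyte markers looked for were listed for ribosome-bound mRNA, and their summed value was 23609 to 27350 at 8 h and 44897 to 53545 at 0 h; in total RNA 12 were listed, at 16258 to 17430 at 8 h and 15969 to 16728 at 0 h. Of 16 granulosa and cumulus markers 4 were listed there (Cyp19a1, Fshr, Nr5a2 and Serpine2), with summed values of 524 to 529 at 8 h and 199 to 207 at 0 h; in total RNA 6 were, at 428 to 550 at 8 h and 324 to 389 at 0 h. Of 11 markers of blood, stroma and endothelium, Pecam1 and Tek were listed, at 106 to 162 at 8 h and 155 to 189 at 0 h. The part of these marker levels in the results below was not tested.

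The condensin genes did not move as a block on ribosomes. At 8 h against 0 h, Ncapg2, Ncapd2 and Smc2 rose and Smc4 and Ncaph2 fell, so that 5 of 8 passed, where 42.1% of all 7543 genes did. Of all genes, 1525 passed as higher and 1648 as lower, so calls in both directions were common. The mRNAs of subunits of the same complex went opposite ways: the core ATPase Smc2 rose and Smc4 fell. The group was chosen with such opposite courses known, so they are a description only. Of condensin II, the G subunit Ncapg2 rose and the kleisin Ncaph2 fell. Smc2 and Ncaph2 were the weaker calls of these pairs. Smc2 stood at 0.20 (limma adjusted p 0.514) with values corrected for transcript length and GC content, and Ncaph2 was at only 2.08 and 2.95 at 8 h. In the change on ribosomes beyond that in total RNA, neither Smc2 (adjusted p 0.152) nor Ncaph2 (adjusted p 0.459) passed at 8 h. The median change of the 8 was 0.22, and that of all genes -0.06. At 2 h, Smc4 alone passed, where 1.47% of all genes did. At 4 h, 4 of 8 passed (Ncapg2, Ncapd3 and Ncapg higher, Smc4 lower) against 15.7% of all genes. The calls for Ncapd3 and Ncapg were both lost without replicate 2 of 0 h, either 2 h library or replicate 1 of 4 h. They were also both lost without a mean-variance trend in the model and with values corrected for transcript length and GC content. At 6 h, 4 of 8 passed (Ncapg2, Smc2 and Ncapd3 higher, Smc4 lower) against 27.9%.

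**Figure D1:**
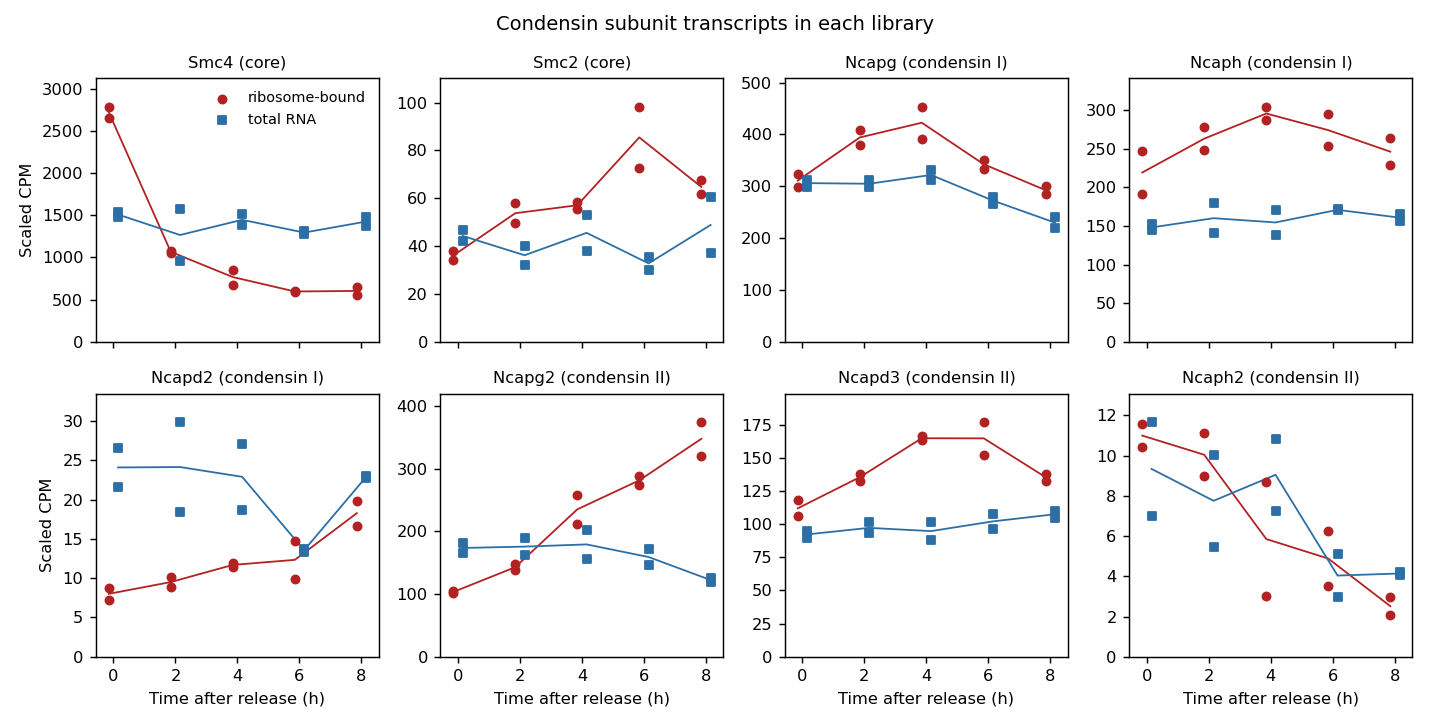
Each panel plots 1 condensin subunit, with time after release from cilostamide in hours on the x axis and scaled CPM on a linear y axis that starts at 0. Circles are the ribosome-bound libraries, squares the total RNA libraries, 2 per time, and lines join their means; ribosome-bound Smc4 is at 651 and 555 at 8 h against 2657 and 2790 at 0 h, while ribosome-bound Ncapg2 is at 320 and 375 at 8 h against 102 and 104 at 0 h.

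Smc4 (ENSMUSG00000034349.14; mm10 chromosome 3, 69004738 to 69034623, plus strand), the core ATPase, was the most abundant condensin mRNA per kilobase in every group and fell on ribosomes from the 2 h libraries on. On ribosomes its value was 2657 and 2790 at 0 h, 1074 and 1059 at 2 h, 857 and 678 at 4 h, 587 and 606 at 6 h, and 651 and 555 at 8 h. Both 0 h libraries lay above all later ones, the steps down to 6 h did not overlap, and the 6 h and 8 h libraries did. The log2 change was -1.35 ± 0.14 at 2 h (adjusted p 6.2e-05), -1.84 ± 0.14 at 4 h, -2.19 ± 0.14 at 6 h and -2.18 ± 0.14 at 8 h (adjusted p 4.4e-09, 4.52-fold lower). The 2 h change was 62.0% of the 8 h change on the log2 scale, and the 4 h change 84.3% of it. Without a mean-variance trend in the model, the 2 h call was lost (adjusted p 0.124). Within a library, Smc4 ranked 258 and 369 among all ribosome-bound genes by value at 8 h, and 30 and 23 at 0 h. The microRNA genes Mir15b and Mir16-2 lie in introns of Smc4 and share no exonic base with it.

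Smc2 (ENSMUSG00000028312.19; chromosome 4, 52439243 to 52488260, plus strand), the other core ATPase, rose on ribosomes, and most at 6 h. Its ribosome-bound value was 37.9 and 34.2 at 0 h, 58.0 and 49.5 at 2 h, 55.7 and 58.5 at 4 h, 98.3 and 72.6 at 6 h, and 61.9 and 67.6 at 8 h. All later libraries lay above both 0 h libraries, and the highest were those of 6 h. The log2 change was 1.21 ± 0.23 at 6 h (adjusted p 0.00080) and 0.83 ± 0.23 at 8 h (adjusted p 0.0074), while the values at 2 h (0.56, adjusted p 0.218) and 4 h (0.65, adjusted p 0.0619) did not pass. The 8 h call was lost without replicate 2 of 8 h (0.77, adjusted p 0.0593), and with values corrected for transcript length and GC content the change was 0.20 (adjusted p 0.514).

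The proportion of the core mRNAs to each other can be read within each library, where scaling cancels. On ribosomes the log2 difference of Smc4 minus Smc2 was 3.37 and 3.02 at 8 h, and 6.09 and 6.31 at 0 h. Per kilobase of exon this was 11.1 and 8.63 times as much Smc4 as Smc2 at 8 h, and 73.7 and 85.8 times as much at 0 h, with no overlap between the times. In total RNA the difference was 4.47 and 5.29 at 8 h, and 5.02 and 5.10 at 0 h, so the 8 h libraries lay on both sides of the 0 h libraries. In scaled CPM not corrected for length, Smc4 made up 37.9% and 32.6% of the summed ribosome-bound value of the 8 subunits at 8 h, and 75.9% and 78.7% at 0 h. In total RNA its part was 66.4% and 68.0% at 8 h, and 65.7% and 65.1% at 0 h.

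**Figure D2:**
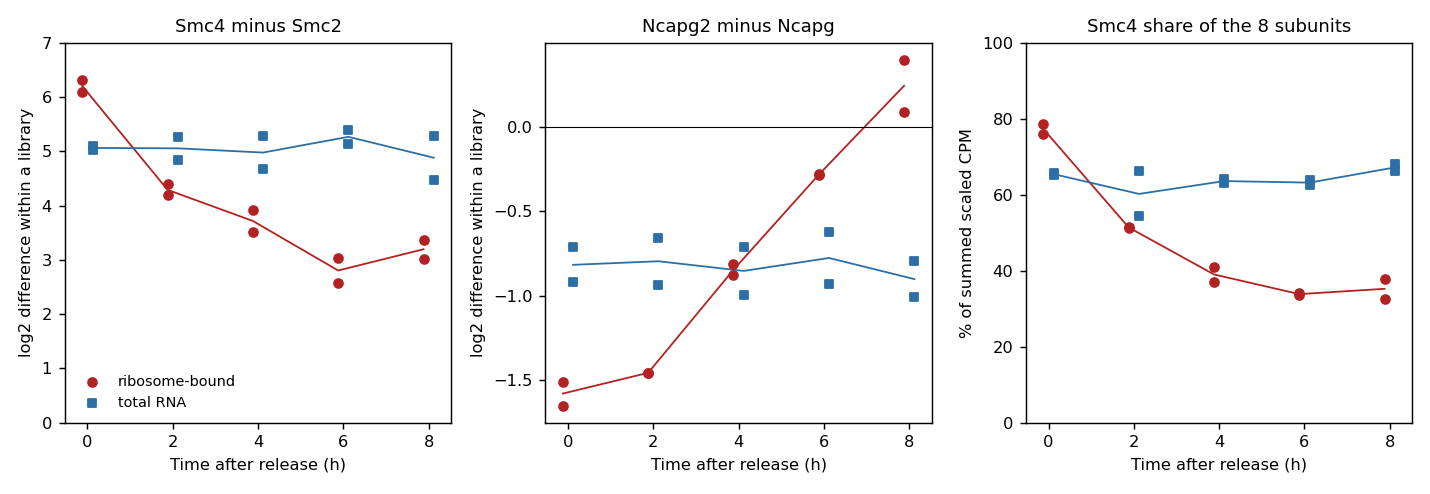
Time after release in hours is on the x axis of all panels; the y axes give the log2 difference of Smc4 minus Smc2, the log2 difference of Ncapg2 minus Ncapg, and the percentage of the summed value of the 8 subunits that was Smc4. Each point is 1 library (circles ribosome-bound, squares total RNA) and lines join means; on ribosomes Smc4 minus Smc2 is 3.37 and 3.02 at 8 h against 6.09 and 6.31 at 0 h, and Ncapg2 minus Ncapg crosses 0 between 6 h and 8 h.

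Ncapg2 (ENSMUSG00000042029.6; chromosome 12, 116405402 to 116463731, plus strand), the HEAT-repeat G subunit of condensin II, rose on ribosomes at every step. Its ribosome-bound value was 102 and 104 at 0 h, 148 and 138 at 2 h, 258 and 212 at 4 h, 274 and 288 at 6 h, and 320 and 375 at 8 h. No 2 times overlapped, and the order of the libraries followed time throughout. The log2 change was 0.46 ± 0.16 at 2 h, which did not pass (adjusted p 0.149), 1.17 ± 0.16 at 4 h (adjusted p 0.00012), 1.44 ± 0.16 at 6 h and 1.74 ± 0.16 at 8 h (adjusted p 3.4e-07, 3.33-fold higher). Of the 8 h change, 26.7% was present at 2 h and 67.5% at 4 h. Between neighbouring times, Ncapg2 was the 1 subunit of 8 that passed at 4 h against 2 h (0.71 ± 0.16, adjusted p 0.0496), where 0.729% of all genes did. That call was lost without any of the 8 libraries of 2, 4, 6 or 8 h (adjusted p up to 0.652, without replicate 1 of 4 h). No subunit passed in limma at 6 h against 4 h, where 0.0663% of all genes did, or at 8 h against 6 h, where 0.689% did; an unadjusted p under 0.05 was found for 3 subunits (Smc2, Smc4 and Ncapg) in the earlier step and for 0 in the later one.

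Of the other condensin II subunits, Ncaph2 was lower at 8 h and Ncapd3 was higher at 4 h and 6 h. Ncaph2 (ENSMUSG00000008690.15; chromosome 15, 89355719 to 89372826, plus strand), the kleisin, was at 10.4 and 11.6 at 0 h, 11.1 and 8.98 at 2 h, 3.04 and 8.67 at 4 h, 6.25 and 3.52 at 6 h, and 2.08 and 2.95 at 8 h on ribosomes. Both 8 h libraries were the lowest of the course and lay apart from both 0 h libraries. The log2 change at 8 h was -1.78 ± 0.56 (adjusted p 0.0156), and the call was lost without replicate 2 of 0 h (adjusted p 0.0667) or replicate 1 of 8 h (adjusted p 0.0814). Its exons overlap those of the antisense genes Sco2 over 829 bases (19.7% of its exonic length) and Tymp over 535 bases (12.7%); whether counting used strand is not given in the sources used here, and reads of these genes cannot be told apart from those of Ncaph2 there. Ncapd3 (ENSMUSG00000035024.15; chromosome 9, 27030175 to 27095315, plus strand), the condensin II D subunit, was at 118 and 106 at 0 h, 138 and 133 at 2 h, 166 and 163 at 4 h, 177 and 152 at 6 h, and 138 and 133 at 8 h. Its libraries of 4 h and 6 h lay above those of all other times. The change was 0.56 ± 0.17 at 4 h (adjusted p 0.0313), 0.55 ± 0.17 at 6 h (adjusted p 0.0201) and 0.27 ± 0.17 at 8 h (adjusted p 0.199). Without a mean-variance trend in limma, the calls at 4 h and 6 h were lost (adjusted p 0.0814 and 0.0535). The 4 h call was lost without replicate 2 of 0 h, either 2 h or either 4 h library (adjusted p 0.0512 to 0.133), the 6 h call without replicate 2 of 0 h or replicate 1 of 6 h (adjusted p 0.0860 and 0.165), and both with the length and GC correction.

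Of the condensin I subunits, Ncapd2 alone passed at 8 h on ribosomes. Ncapd2 (ENSMUSG00000038252.13; chromosome 6, 125168007 to 125191701, minus strand), the condensin I D subunit, was at 7.26 and 8.76 at 0 h, 8.87 and 10.1 at 2 h, 11.4 and 11.9 at 4 h, 14.7 and 9.96 at 6 h, and 16.7 and 19.9 at 8 h. The 8 h libraries were the highest of the course. The log2 change at 8 h was 1.10 ± 0.40 (adjusted p 0.0365), and leaving out either 0 h or either 8 h library ended the call (adjusted p 0.0599 to 0.174). Its exons share 237 bases with the small RNA gene Scarna10 on the same strand, 3.78% of its exonic length.

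Ncapg (ENSMUSG00000015880.13; chromosome 5, 45669919 to 45700546, plus strand), the G subunit of condensin I and the counterpart of Ncapg2, was highest on ribosomes at 2 h and 4 h in scaled CPM. Its ribosome-bound value was 323 and 299 at 0 h, 408 and 380 at 2 h, 454 and 392 at 4 h, 334 and 351 at 6 h, and 300 and 284 at 8 h. The 2 h and 4 h libraries lay above all others, and the 8 h and 0 h libraries overlapped. The change passed at 4 h (0.44 ± 0.14, adjusted p 0.0445), a call lost on leaving out any ribosome-bound library but replicate 2 of 4 h (adjusted p up to 0.266, without replicate 1 of 4 h), and stood at -0.09 ± 0.14 at 8 h (adjusted p 0.645). That call was also lost without a mean-variance trend (adjusted p 0.146). With the length and GC correction the 4 h change was 0.10 (adjusted p 0.673) and the 8 h change -0.68 (adjusted p 0.00085). Ncapg shares 944 exonic bases (13.4%) with the antisense gene Lcorl, which was also listed. Ncaph (ENSMUSG00000034906.15; chromosome 2, 127103809 to 127133954, minus strand), the condensin I kleisin, was at 247 and 191 at 0 h, 248 and 278 at 2 h, 287 and 305 at 4 h, 254 and 294 at 6 h, and 228 and 264 at 8 h. Its 8 h and 0 h libraries overlapped, and no change passed in the main model. The change was 0.44 ± 0.16 at 4 h (limma adjusted p 0.0786) and 0.17 ± 0.16 at 8 h (adjusted p 0.415). Leaving out 1 library at a time, it ran from 0.26 to 0.62 at 4 h and from -0.01 to 0.36 at 8 h.

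The G subunits also shifted against each other within a library. The log2 difference of Ncapg2 minus Ncapg on ribosomes was 0.09 and 0.40 at 8 h, and -1.65 and -1.51 at 0 h. In total RNA it was -0.80 and -1.01 at 8 h, and -0.92 and -0.71 at 0 h, and the libraries of the 2 times overlapped. These are differences of scaled CPM; per kilobase of exon, Ncapg2 averaged 34.9 and Ncapg 41.4 on ribosomes at 8 h, and 10.4 and 44 at 0 h. The summed ribosome-bound value of the 3 condensin II subunits outside the core was 460 and 510 at 8 h, and 231 and 222 at 0 h. That of the 3 condensin I subunits was 546 and 568 at 8 h, and 577 and 499 at 0 h. The condensin II sums were thus higher at 8 h in both libraries, while the condensin I sums of the 2 times overlapped. Ncapg2 carried the condensin II difference, with a mean of 347 at 8 h and 103 at 0 h; Ncapd3 averaged 135 at 8 h and 112 at 0 h, and Ncaph2 2.52 at 8 h and 11 at 0 h.

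In total RNA no condensin subunit passed in limma at any time against 0 h. The shares of all 7917 genes that passed were 0% at 2 h, 0% at 4 h, 0.202% at 6 h and 3.97% at 8 h, and the subunits with an unadjusted p under 0.05 were 0 at 2 h and at 4 h, 1 at 6 h (Ncapd2) and 2 at 8 h (Ncapg and Ncapg2). Smc4 was at 1541 and 1478 at 0 h, 1580 and 953 at 2 h, 1381 and 1513 at 4 h, 1313 and 1277 at 6 h, and 1369 and 1484 at 8 h. Replicate 2 of 2 h was the lowest library, and the 8 h libraries reached into the range of 0 h, with a log2 change of -0.08 ± 0.16 (adjusted p 0.828). Ncapg2 was at 165 and 182 at 0 h, 162 and 189 at 2 h, 156 and 203 at 4 h, 146 and 172 at 6 h, and 126 and 119 at 8 h. Both 8 h libraries lay below every earlier one, with a change of -0.50 ± 0.17 (adjusted p 0.113). Ncapg was at 219 and 240 at 8 h and at 313 and 299 at 0 h, again without overlap, with a change of -0.41 ± 0.13 (adjusted p 0.0917; -0.52 and 0.0298 with the length and GC correction). Smc2 ranged from 30.2 to 60.7 over the 10 total RNA libraries and Ncapd2 from 13.4 to 29.9. Ncaph ranged from 138 to 179, Ncapd3 from 88.1 to 110 and Ncaph2 from 2.99 to 11.7. For these 5 the 8 h changes lay between -0.97 and 0.22, with adjusted p of 0.339 or more.

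The difference between the 2 kinds of RNA was tested as the change on ribosomes beyond that in total RNA, an interaction over all 20 libraries and the 7346 genes in both tables. At 8 h, 2 of 8 subunits passed, where 21% of all genes did: Smc4 at -2.10 ± 0.22 (adjusted p 5.3e-07) and Ncapg2 at 2.23 ± 0.23 (adjusted p 3.1e-07). Ncapd2 (1.16 ± 0.49, adjusted p 0.0940) and Smc2 (0.73 ± 0.36, adjusted p 0.152) did not, and neither did Ncaph2 (-0.81 ± 0.72, adjusted p 0.459), Ncapg (0.33), Ncaph (0.06) or Ncapd3 (0.06). At 6 h, Smc4 (-1.97 ± 0.22), Ncapg2 (1.56 ± 0.23) and Smc2 (1.63 ± 0.36, adjusted p 0.0035) passed, where 11.7% of all genes did. At 4 h, Smc4 (-1.77 ± 0.22) and Ncapg2 (1.14 ± 0.23, adjusted p 0.0041) passed, where 5.1% did. At 2 h no subunit passed in limma, where 0.0953% of all genes did; Smc4 stood at -1.05 ± 0.22 (adjusted p 0.0615), and 2 subunits, Smc2 and Smc4, had an unadjusted p under 0.05. Without total RNA replicate 2 of 2 h, the library at 953, Smc4 passed at -1.42 (adjusted p 0.00057); without total RNA replicate 1 of 2 h it stood at -0.69 (adjusted p 0.247). It also passed without either ribosome-bound 4 h library (adjusted p 0.0489 and 0.0485), with a mean value of at least 20 (adjusted p 0.0430) and with the length and GC correction (-1.20, adjusted p 0.0126).

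**Figure D3:**
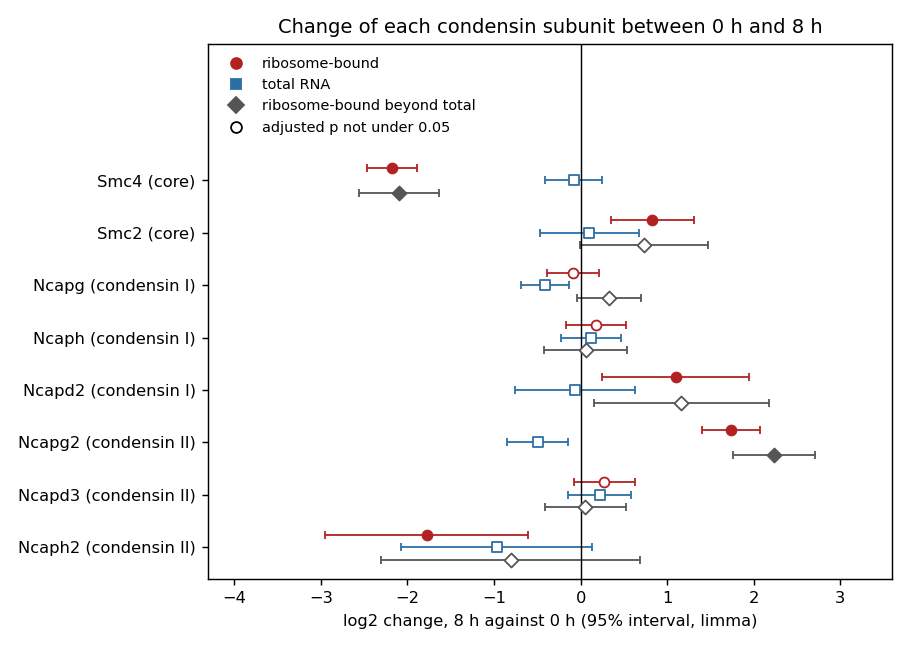
The x axis gives the log2 change at 8 h against 0 h with its 95% interval from limma, and each row is 1 condensin subunit. Circles are ribosome-bound mRNA, squares total RNA and diamonds the ribosome-bound change beyond total RNA, filled where the adjusted p was under 0.05; Smc4 at -2.18 and Ncapg2 at 1.74 on ribosomes stand to either side of 0, and no total RNA point is filled.

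Levels of different subunits were ranked per kilobase of their exons. On ribosomes at 8 h the order was Smc4 (116 ± 13.1 scaled CPM per kilobase, SD, n = 2), Ncaph (57.2 ± 5.84), Ncapg (41.4 ± 1.62), Ncapg2 (34.9 ± 3.88), Ncapd3 (17.1 ± 0.490), Smc2 (11.8 ± 0.733), Ncapd2 (2.92 ± 0.361) and Ncaph2 (0.600 ± 0.146). At 0 h it was Smc4 (523 ± 18.1), Ncaph (50.9 ± 9.15), Ncapg (44 ± 2.40), Ncapd3 (14.2 ± 1.09), Ncapg2 (10.4 ± 0.157), Smc2 (6.58 ± 0.484), Ncaph2 (2.62 ± 0.188) and Ncapd2 (1.28 ± 0.169). Smc4 stood first at all 5 times. Ncaph and Ncapg at 0 h were closer than the spread of Ncaph, and their order turned when the length of the principal transcript was used in place of all exons (81.4 for Ncaph and 84.0 for Ncapg); so did that of Ncapd3 and Ncapg2 at 0 h (20.3 and 22.0). At 8 h the order was the same with either length. In total RNA at 0 h the order began with Smc4 (290 ± 8.62), Ncapg (43.3 ± 1.35), Ncaph (34.4 ± 1.27) and Ncapg2 (17.4 ± 1.23).

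Genes with the most similar courses were looked for by Pearson's r of log2 values over the 10 ribosome-bound libraries, among 5318 genes. The pool held genes with a mean value of at least 20. Condensin members and unnamed gene models (Gm with a number, or symbols ending in Rik) were left out of it. These libraries share the 5 times, so the values are a description of likeness only. The 5 genes closest to Smc4 were Gnai2 (r 0.981), Rpn2 (0.975), Kdm1b (0.975), Ybx2 (0.973) and Zp1 (0.973), and 29 genes exceeded 0.95. For Ncapg2 they were Wapl (r 0.995), Cnot6l (0.995), Klhl9 (0.993), Rbbp7 (0.991) and Tiparp (0.991), and 196 genes exceeded 0.95. Wapl, which releases cohesin from chromosomes, had a mean value of 1543 at 8 h and 475 at 0 h; Zp1, a protein of the zona pellucida, had 655 at 8 h and 2866 at 0 h. Between Smc4 and Ncapg2 themselves r was -0.918, and between Smc4 and Smc2 -0.898.

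The remaining SMC complexes and the partners of condensin give a setting for these values. Of 17 symbols for subunits of cohesin and the SMC5/6 complex, older symbols included, 10 were listed for ribosome-bound mRNA; at 8 h against 0 h, 7 rose and 1 fell, with a median change of 0.93, where the median of all genes was -0.06 and 42.1% of them passed. Smc6 (1.08 ± 0.15), an ATPase of the SMC5/6 complex, and Rad21 (1.07 ± 0.16), the kleisin of mitotic cohesin, rose. Smc1b (-0.91 ± 0.31), a cohesin ATPase of meiosis, fell. Its call was lost without replicate 1 of 0 h (-0.41) or replicate 2 of 8 h (-0.50), and without a mean-variance trend in limma (adjusted p 0.0787). Of 19 partners and regulators of chromosome condensation, 18 were listed, and 7 rose and 6 fell (4 rose without replicate 2 of 8 h), with a median of 0.35, against the same 42.1% of all genes. Cdca8 (1.15 ± 0.18), of the chromosomal passenger complex, rose. Cdk1 (-2.20 ± 0.22), the kinase that phosphorylates condensin subunits in M phase, and Birc5 (-1.44 ± 0.16), also of the passenger complex, fell. The passenger kinases Aurkb (1.62 ± 0.40) and Aurkc (1.63 ± 0.27) rose, the call for Aurkb being lost without replicate 2 of 8 h (adjusted p 0.0591). Plk1 (-0.67 ± 0.15), which acts on condensin II, fell, to a value of -0.18 with the length and GC correction, where the call was lost. Top2a (-0.45 ± 0.16, adjusted p 0.0332), the topoisomerase that works beside condensin, fell. That call was lost without replicate 1 of 0 h (-0.24), replicate 1 of 2 h or either 8 h library. It was also lost in limma with libraries centred on their medians (adjusted p 0.0721) and without a mean-variance trend (adjusted p 0.101). In total RNA at 8 h, 1 of the 10 SMC genes fell and none rose, and 1 of the 18 partners rose and 1 fell, where 3.97% of all genes passed.

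**Figure D4:**
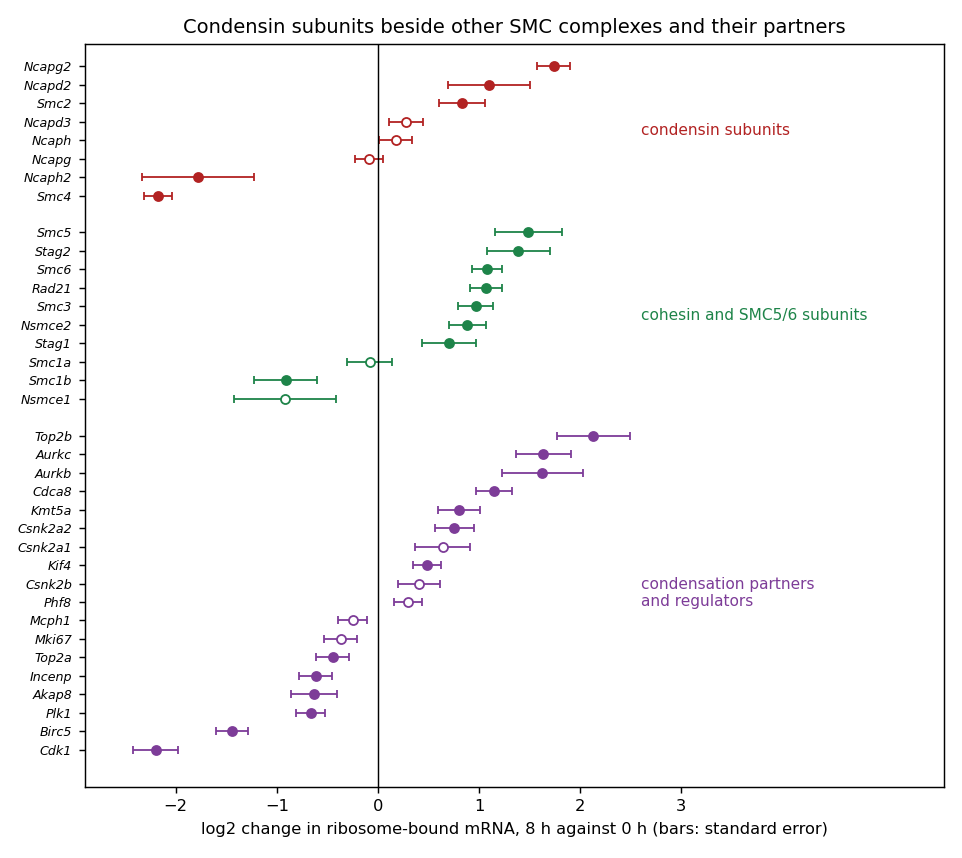
Each row is 1 gene, and the x axis gives its log2 change in ribosome-bound mRNA at 8 h against 0 h with limma's standard error as the bar, filled where the adjusted p was under 0.05. The 8 condensin subunits run from Ncapg2 at 1.74 to Smc4 at -2.18, with 10 cohesin and SMC5/6 subunits and 18 condensation partners under them.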

How the data were processed

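The authors deposited 1 table per kind of RNA, with a signal in scaled CPM (CPM multiplied by a factor per library); totals per library ran from 968768 to 1052767. The submitters' processing notes name HISAT2, HTSeq, SAMtools, Trimmomatic 0.36, FastQC, limma and edgeR, with build mm10. All values of a library were whole multiples of 1 step within 0.01 of a read, from which depth was inferred. The plan assumed plain CPM; the same test was kept. Genes that reached a value of 1 in 2 or more libraries entered limma 3.58.1 (R 4.3.3) as log2 with a pseudocount of 1, moderated by empirical Bayes with a mean-variance trend; tests were two-sided. The model was tested on simulated data, with 100 genes changed by a log2 of 1 at 8 h and 100 by 1.5. It recovered 34 and 67 of these on ribosomes, 44 and 82 in total RNA, and 20 and 52 beyond total RNA. False calls were 5, 2 and 2. Fewer genes changed in the simulation than were called in the data. A change that did not pass may thus still be present. The members, lists and comparisons were chosen with earlier results of these data known. Named genes were the 8 members, the 5 most alike to Smc4 and Ncapg2, up to 2 per list and direction with the smallest p, and Cdk1, Plk1, Aurkb, Aurkc and Top2a; 1 list gene is not reported here and was left out of its list. Positions, lengths and 3' UTRs came from GENCODE vM21, where 8103 of 8114 IDs were found; Ncapd3 and Ncapg2 matched by ID with another version. Alternatives were other pseudocounts, filters, median centring, no trend, a replicate block, a length and GC correction, and leaving out each library.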

Additional observations from a re-analysis of the deposited data

Results flagged for a closer look

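These values were picked out because the change on ribosomes and the change in total RNA differed, by a test of the difference itself (the interaction of RNA kind and time in limma, adjusted p under 0.05). Smc4 differed at 4 h (-1.77), at 6 h (-1.97) and at 8 h (-2.10). Ncapg2 differed in the other direction at 4 h (1.14), at 6 h (1.56) and at 8 h (2.23). Smc2 differed at 6 h (1.63). These 7 values kept their direction and their side of the threshold under every alternative run, with replicates left out or with ribosome-bound and total RNA libraries blocked by time and letter. All are relative to the same 0 h libraries. Each group held 2 libraries, too few for a check of single libraries against their group.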

How the results depend on the processing

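Ribosome-bound Smc4 and Ncapg2 kept their calls at 4 h, 6 h and 8 h against 0 h in all alternatives run. Leaving out 1 library moved the subunits called higher on ribosomes to between 1 and 3 at 4 h, 0 and 1 at 4 h against 2 h, 2 and 4 at 6 h, and 1 and 3 at 8 h, those called lower at 8 h to between 1 and 2, and those lower beyond total RNA at 2 h to between 0 and 1. Without a mean-variance trend, 0 were lower at 2 h, 1 was higher at 4 h, 0 at 4 h against 2 h, and 2 were higher beyond total RNA at 8 h. With the length and GC correction, 1 was higher at 4 h, and 0 were higher and 1 lower at 4 h against 2 h. In total RNA at 8 h 1 was lower with it, and beyond total RNA at 2 h 1 was lower. At 8 h on ribosomes the same correction ended the call for Smc2 (0.20, adjusted p 0.514), and Ncapg passed as lower (-0.68, adjusted p 0.00085). A mean value of at least 20 gave 1 lower at 8 h, since Ncaph2 was left out, and 1 lower beyond total RNA at 2 h. That filter also left out ribosome-bound Ncapd2, whose means ran from 8.01 at 0 h to 18.3 at 8 h, so its rise was not tested there. At 4 h against 2 h, 0 were higher with a pseudocount of 0.25, with median centring and with the replicate block. Samples with the same replicate letter showed no shared deviation (correlations of deviations -0.107 to 0.115). This cannot show whether they came from the same oocytes, which the labels do not say. With the block 3 were higher and 2 lower at 8 h. Calls were lost with it for Ncapg at 4 h (adjusted p 0.0576) and Ncapg2 at 4 h against 2 h (adjusted p 0.0955). Signs turned for uncalled changes at 8 h. Leaving out 1 library at a time, the change ran from -0.25 to 0.45 for Smc2 and from -0.21 to 0.080 for Ncapd2 in total RNA, from -0.0087 to 0.36 for Ncaph on ribosomes, and, beyond total RNA, from -0.13 to 0.24 for Ncaph and from -0.023 to 0.13 for Ncapd3. With the length and GC correction the change beyond total RNA was -0.16 for Ncapg and -0.11 for Ncapd3. The causes were not tested. Where 1 library was left, it was assumed to vary like the other groups. Count tests in edgeR and DESeq2 were not run, as the values are not counts.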
